A study of Mus musculus with 12 samples.

Results

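Centriole duplication genes were examined in total colons of C57BL/6 mice that the labels call S1PR4 KO (KO here; S1PR4 is an immune cell receptor for a lipid) and of mice that they call WT. The 10 genes, of 30263 in the colon tables, were Sfi1, Stil, Plk4, Sass6, Cep152, Cep192, Cenpj, Cep63, Cep135 and Pcnt. They were taken by symbol, and the group was selected on the colon counts, because Sfi1 and Stil stood out when KO colons were set against WT colons, so every KO and WT value of a member below is a description and carries no test. The colon groups held 3 KO and 3 WT libraries. In both groups the mice had received azoxymethane (AOM, 10 mg/kg), a carcinogen, and 0.5% dextran sulfate sodium (DSS) in drinking water, which injures the colon lining, on days 1 to 6, 21 to 27 and 47 to 52, and colons were taken at day 84. The series also holds 3 KO and 3 WT libraries of CD8+ T cells sorted from PyMT mammary tumors of 1.5 cm, but 0 of the 10 genes are among the genes listed in those tables, so that comparison has no value for them. Triplicates are stated, but not whether each library came from a separate animal.

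A centriole is a small barrel of microtubules that organises the centrosome and the poles of the mitotic spindle, and a cell that is about to divide builds a new centriole beside each old one. The kinase Plk4 starts this step. Cep192, Cep152 and Cep63 form the scaffold that brings Plk4 to the old centriole, Stil binds Plk4 and recruits Sass6, Sass6 forms the cartwheel that sets the symmetry of the new barrel, and Cenpj and Cep135 help build and stabilise its wall. Pcnt is a scaffold of the surrounding pericentriolar material, and Sfi1 is a centrin-binding protein, known in yeast from the bridge of the spindle pole body. In the gut these genes are used by dividing crypt cells. In whole colon, more cells with an RNA and more RNA per cell cannot be told apart.

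A colon library held 7304082 to 8652561 counts. S1pr4 had 154, 162 and 118 counts in KO colons, against 61, 47 and 25 in WT colons, so the targeted gene went against the labels. KO colons and WT colons therefore mean libraries labelled KO and labelled WT throughout, and every direction below is one between labels. The libraries also differed in Xist, an RNA of female cells. KO replicates 2 and 3 and WT replicate 1 held between 517 and 606 CPM of Xist (counts scaled to a common library total) and are called Xist-high here. KO replicate 1 and WT replicates 2 and 3 held at most 6.64 CPM, and Ddx3y, on the Y chromosome, was counted at 63.1 to 80.2 CPM there. They are called Y-linked. All 10 epithelial markers were counted in every library, and their summed level was 2336 to 2550 CPM in KO colons and 2171 to 2588 CPM in WT colons. WT replicate 1 stood apart, with 548 CPM summed over 10 skeletal muscle and squamous markers, where no other library exceeded 77.1 CPM. Of 10 crypt stem cell markers, all counted in every library, the sum was 1303 and 1775 CPM in KO replicates 2 and 3 and 591 CPM in KO replicate 1, against 561 to 830 CPM in WT colons. Summed over 8 neutrophil markers, KO replicates 2 and 3 held 171 and 176 CPM and KO replicate 1 held 22.2 CPM, against 18.9 to 69.0 CPM in WT colons. Smooth muscle markers went the other way, with sums of 1852 and 1213 CPM in KO replicates 2 and 3 and 2180 CPM in KO replicate 1, against 1889 to 2407 CPM in WT colons. Enteric neuron and glia markers summed to 174 and 131 CPM in KO replicates 2 and 3 and 292 CPM in KO replicate 1, against 218 to 285 CPM in WT colons. Leukocyte markers overlapped, at 273 to 579 CPM in KO colons and 275 to 489 CPM in WT colons. All these sums are of marker RNA and do not count cells of a type, and no tumor size is given for the colons. The part of the marker differences in the values below was not tested.

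Sfi1 and Stil, the genes for which the group was picked, had every KO library above every WT library. Sfi1 (ENSMUSG00000023764, GRCm38 chromosome 11, 3131850 to 3193463, minus strand) had 83.6, 87.2 and 85.8 CPM in KO colons, against 64.3, 63.1 and 68.3 CPM in WT colons, after scaling by the TMM method. The groups were separated by a gap of 15.4 CPM, and the fitted log2 difference of KO over WT was 0.39 ± 0.07 (SE), a ratio of 1.31. Stil (ENSMUSG00000028718, chromosome 4, 115000159 to 115043196, plus strand) had 33.4, 37.8 and 40.2 CPM in KO colons, against 25.6, 21.4 and 19.9 CPM in WT colons. Its groups were separated by 7.90 CPM, the log2 difference was 0.74 ± 0.15 (SE) and the ratio 1.67. In Stil the nearest libraries of opposite label were KO replicate 1 and WT replicate 1, each of which has the other Xist status from the rest of its label. Sfi1 differed by 0.42 among Xist-high and by 0.35 among Y-linked libraries, and Stil by 0.60 and 0.69 (log2), so each was higher in KO within either set. In each set 1 label has a single library, KO replicate 1 in the Y-linked set and WT replicate 1 in the other. Leaving out each library in turn gave 0.37 to 0.42 for Sfi1 and 0.66 to 0.86 for Stil.

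**Figure D1:**
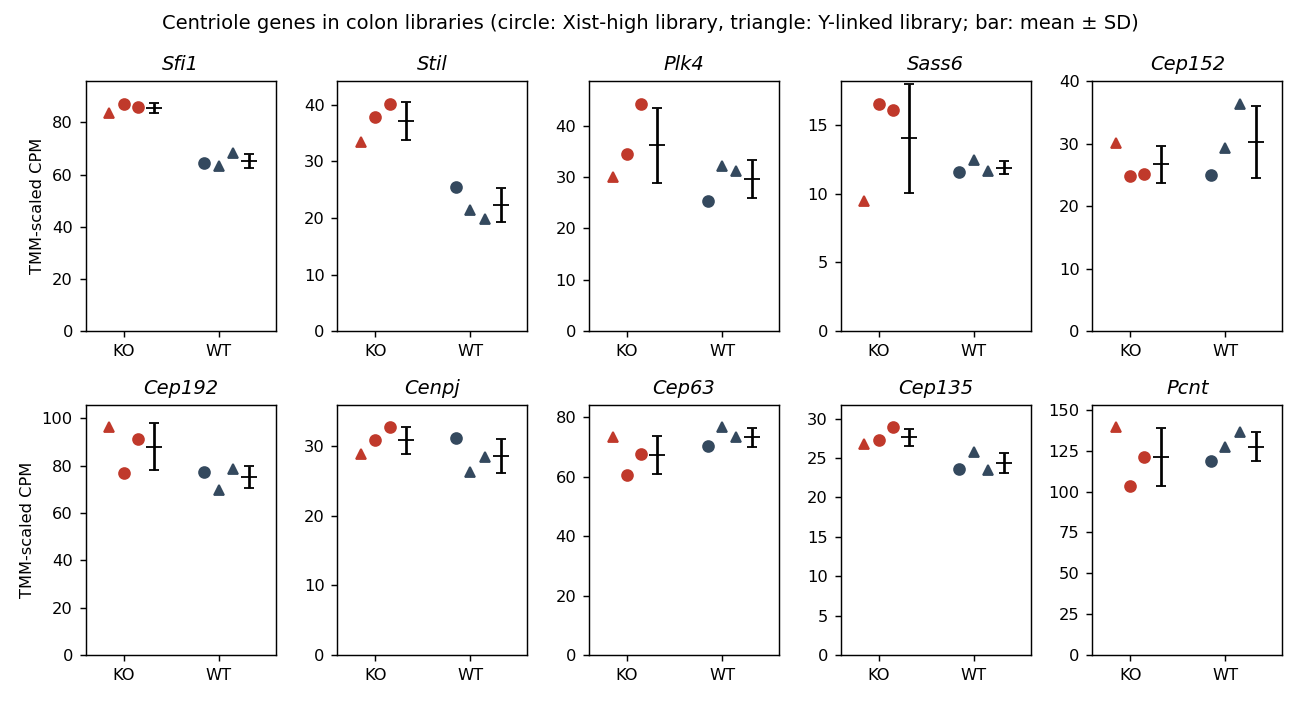
TMM-scaled CPM (y axis, from 0) of the 10 genes in the 3 KO and 3 WT colon libraries. Each point is a library, circles are Xist-high and triangles Y-linked, and the bars give the mean ± SD of each label. Sfi1, Stil and Cep135 have every KO point above every WT point, and the other genes overlap.

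Over all members, 3 of 10 had every KO library above every WT library, namely Sfi1, Stil and Cep135, and 0 had every KO library below. Of all 17195 genes tested, 4.55% had every KO library above, 5.04% every KO library below and 9.58% either. The fitted difference was above 0 for 7 members, against 49% of all genes, and below 0 for Cep152, Cep63 and Pcnt. The median over the members was 0.21 and over the 8 members other than Sfi1 and Stil 0.15, against -0.0045 over all tested genes (log2). Without KO replicate 3 these medians were 0.13 over the members and 0.093 over the 8. Since the contrast chose the group, these counts are given without a reading. All 10 genes passed the filter on low counts, with between 74 and 1091 counts in a library.

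Plk4 and Sass6, which act with Stil at the start of a new centriole, had higher means in KO colons but overlapping groups. Plk4 (chromosome 3, 40800019 to 40816883, plus strand) had 30.0, 34.4 and 44.3 CPM in KO colons, against 25.3, 32.2 and 31.1 CPM in WT colons, a log2 difference of 0.29 ± 0.18 (SE). KO replicate 3 was highest and WT replicate 1 lowest, and KO replicate 1 lay inside the WT range. Sass6 (chromosome 3, 116594982 to 116631004, plus strand), the scarcest member, had 9.45, 16.5 and 16.1 CPM in KO colons, against 11.6, 12.4 and 11.6 CPM in WT colons, a log2 difference of 0.24 ± 0.25 (SE). The 2 Xist-high KO libraries held more Sass6 than any WT library, and KO replicate 1 held less than any.

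The promoters of Stil, Plk4 and Sass6 are shown because their products form the starting module of a new centriole and because short promoter motifs of cell cycle genes can be read in them. RefSeq promoter windows on GRCm38.p6 were at hand for 8 of the 10 members, not for Sfi1 and Cep192. Each sequence is the 250 bases before the RefSeq start of the gene, written 5′ to 3′ on the gene's strand. Capitals mark matches, on either strand, of 3 motifs. The cell cycle homology region (CHR) was searched as TTTGAA and as its variant TTTAAA. The core of an E2F site was searched as TTCCCGC, then with other central letters as TTGGCGC, further as the word TTCGCGC and also as the word TTGCCGC. The NF-Y box was searched as CCAAT.
Stil, chr4:114999868-115000117, plus strand: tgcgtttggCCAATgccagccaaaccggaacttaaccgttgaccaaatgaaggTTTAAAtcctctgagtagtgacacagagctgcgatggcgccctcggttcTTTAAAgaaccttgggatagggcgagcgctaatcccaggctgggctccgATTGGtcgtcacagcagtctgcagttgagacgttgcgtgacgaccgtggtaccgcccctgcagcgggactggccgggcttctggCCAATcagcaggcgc
Plk4, chr3:40799701-40799950, plus strand: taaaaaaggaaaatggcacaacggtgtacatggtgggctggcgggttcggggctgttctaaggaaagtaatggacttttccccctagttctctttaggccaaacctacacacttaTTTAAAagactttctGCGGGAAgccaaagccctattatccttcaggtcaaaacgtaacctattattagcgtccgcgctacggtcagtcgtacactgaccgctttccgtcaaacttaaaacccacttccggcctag
Sass6, chr3:116594708-116594957, plus strand: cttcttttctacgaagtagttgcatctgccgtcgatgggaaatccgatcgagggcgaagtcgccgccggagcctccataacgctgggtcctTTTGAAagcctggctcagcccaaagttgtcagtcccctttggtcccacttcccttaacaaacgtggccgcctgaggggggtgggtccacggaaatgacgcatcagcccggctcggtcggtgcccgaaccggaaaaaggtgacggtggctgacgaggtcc
The Stil window held TTTAAA in 2 places, 197 and 148 bases before the start, and CCAAT in 3, at 241, 99 and 15 bases, the one at 99 bases on the opposite strand. The Plk4 window held TTTAAA at 135 bases and TTCCCGC, on the opposite strand, at 120 bases. The Sass6 window held TTTGAA at 159 bases and no other match. Among the 8 members with a window, a CHR word was found in Stil, Plk4 and Sass6, and in 25% of 32536 distinct mouse promoter windows of the same length. An E2F core was found in 4 members, Plk4, Cep152, Cep63 and Pcnt, and in 7.94% of all windows. CCAAT was found in 3 members, Stil, Cep152 and Cep135, and in 33.8% of all windows. These matches do not overlap one another within the printed windows and are descriptions of the letters, not of binding.

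Of the genes that bring Plk4 to the old centriole, Cep192 had a higher mean in KO colons and Cep152 and Cep63 lower ones, each with overlapping groups. Cep192 (chromosome 18, 67800107 to 67885170, plus strand) had 96.1, 76.8 and 91.2 CPM in KO colons, against 77.2, 69.8 and 78.5 CPM in WT colons, a log2 difference of 0.23 ± 0.11 (SE). KO replicate 2 was the KO library within the WT range. Cep152 (chromosome 2, 125563088 to 125625113, minus strand) had 30.1, 24.9 and 25.2 CPM in KO colons, against 25.0, 29.3 and 36.4 CPM in WT colons, a log2 difference of -0.18 ± 0.18 (SE). Its 3 lowest libraries were the 3 Xist-high ones, of either label. Cep63 (chromosome 9, 102584588 to 102626534, minus strand), a partner of Cep152, had 73.4, 60.6 and 67.8 CPM in KO colons, against 70.3, 76.6 and 73.3 CPM in WT colons, a log2 difference of -0.13 ± 0.09 (SE). Its Xist-high libraries were also its 3 lowest.

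Of the wall-building genes, Cenpj had overlapping groups and Cep135 did not. Cenpj (chromosome 14, 56526761 to 56575425, minus strand), which limits and extends the centriole wall, had 28.9, 30.9 and 32.7 CPM in KO colons, against 31.1, 26.2 and 28.5 CPM in WT colons, a log2 difference of 0.11 ± 0.12 (SE). Cep135 (chromosome 5, 76588698 to 76646466, plus strand), which joins the cartwheel to the wall, had 26.8, 27.2 and 28.9 CPM in KO colons, against 23.7, 25.8 and 23.5 CPM in WT colons, a log2 difference of 0.18 ± 0.11 (SE). Its groups did not overlap, by a gap of 0.997 CPM. The scaffold gene Pcnt (chromosome 10, 76351263 to 76442786, minus strand) had 139, 103 and 121 CPM in KO colons, against 119, 127 and 136 CPM in WT colons, a log2 difference of -0.07 ± 0.12 (SE). KO replicate 1 held the most Pcnt and KO replicate 2 the least, so the WT libraries lay inside the KO range. Pcnt ends 5.05 Mb from S1pr4 on the same chromosome.

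Leaving out single libraries kept the sign of 9 members and changed that of Pcnt, which ran from -0.18 to 0.03 (log2) and stood at 0.03 without KO replicate 2. Sass6 stood at 0.46 without KO replicate 1 and at 0.10 without KO replicate 2, and Plk4 at 0.12 without KO replicate 3, where the fits to all libraries gave 0.24 and 0.29. Without WT replicate 3, Cep152 stood at -0.02. Among Xist-high libraries the differences of Plk4, Sass6, Cep192 and Pcnt were 0.62, 0.48, 0.12 and -0.09, and among Y-linked libraries -0.08, -0.34, 0.38 and 0.08. Plk4, Sass6, Pcnt and Cep152 thus differ in sign between the sets, Cep152 at 0.0039 in the Xist-high and -0.11 in the Y-linked set, and the other 6 members kept their sign in both.

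**Figure D2:**
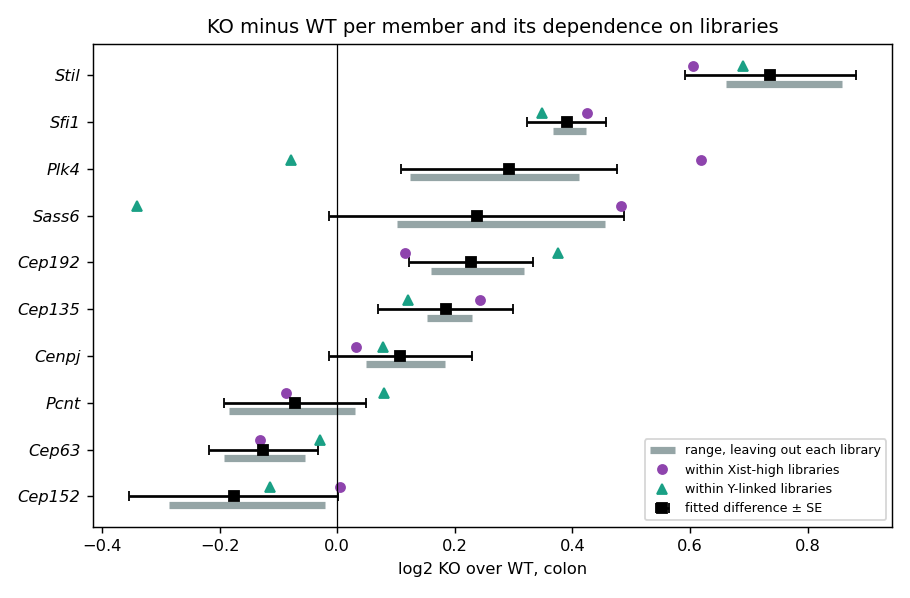
Fitted log2 difference of KO over WT in colon (x axis) for each gene, with its SE (squares and bars), the range over fits that leave out each library (grey), and the difference of mean log2 CPM within the Xist-high libraries (circles) and within the Y-linked libraries (triangles). Sfi1 and Stil are above 0 in every one of these values, whereas the circle and triangle of Plk4 and of Sass6 lie on opposite sides of 0.

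Libraries of the same label differed least in Sfi1. The SD of log2 CPM within a label was 0.047 for Sfi1, lower than in all but 1.98% of tested genes, and 0.066 for Cep135. It was 0.11 for Cenpj and Cep63, 0.14 for Cep192, 0.16 for Stil, 0.17 for Pcnt, 0.22 for Cep152, 0.24 for Plk4 and 0.32 for Sass6. Sass6 also had the fewest counts, 74 to 125 per library, which limits its precision. Sfi1 reached its log2 difference with a small spread and Stil with a larger difference and a spread near the middle of all genes (percentile 41.7). Both were picked because KO and WT colons stood apart, which favours a small spread within a label. Their places among all genes are therefore descriptions, each from 3 libraries a label.

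Levels per exon length, averaged over both labels, placed Pcnt and Sfi1 at the top and Sass6 at the bottom. In CPM per kb of annotated exon, over the 6 colon libraries, the means were 10.2 ± 1.08 for Pcnt, 9.97 ± 1.49 for Sfi1, 7.33 ± 0.588 for Cep63, 6.54 ± 0.796 for Cep192 and 6.10 ± 0.474 for Cenpj (SD, n = 6). Below them stood Stil with 5.13 ± 1.49, Cep152 with 4.94 ± 0.784, Plk4 with 4.80 ± 0.924, Cep135 with 3.61 ± 0.293 and Sass6 with 2.12 ± 0.454 CPM per kb (SD, n = 6). Of the 9 neighbouring pairs, 3 kept their order in all 6 libraries, namely Sfi1 above Cep63, by 0.44 on the log2 scale, Plk4 above Cep135, by 0.39, and Cep135 above Sass6, by 0.80. Each of these had p = 0.03125 in an exact two-sided paired permutation test over libraries, the smallest that 6 libraries allow. Over the 9 pairs the adjusted p was 0.0938 in the same exact test, so none passed after adjustment. Passing would have needed most of the 9 pairs at that smallest p, so the failure says little about any pair. The other 6 pairs did not differ beyond their spread (exact permutation test, lowest p = 0.156), and in each of them 4 of 6 libraries had the higher gene on top. In KO colons Sfi1 stood at 11.3 ± 0.236 and Stil at 6.41 ± 0.589 CPM per kb, against 8.63 ± 0.355 and 3.84 ± 0.506 CPM per kb in WT colons (SD, n = 3 each). Per exon length the order of the means changed with the label, which is a description, since Sfi1 and Stil were picked on that contrast. Mean Sfi1 stood above Pcnt in KO colons, where Pcnt averaged 9.98 ± 1.48 CPM per kb (SD, n = 3). It stood below Pcnt in WT colons, where Pcnt averaged 10.5 ± 0.722 CPM per kb (SD, n = 3). In KO replicate 1, too, Pcnt was above Sfi1. Stil stood just above Cenpj in KO colons, with Cenpj at 6.32 CPM per kb, and below Cep152 and Plk4 in WT colons, with these at 5.24 and 4.31 CPM per kb. With the length of the longest annotated transcript in place of all exons, Sfi1 ranked above Pcnt, and Plk4 above Cenpj, Stil and Cep152. On that length Sfi1 was above Pcnt in all 6 libraries, so their order did not change with the label. The means were 19.9 and 13.0 CPM per kb in KO colons and 15.2 and 13.6 CPM per kb in WT colons.

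**Figure D3:**
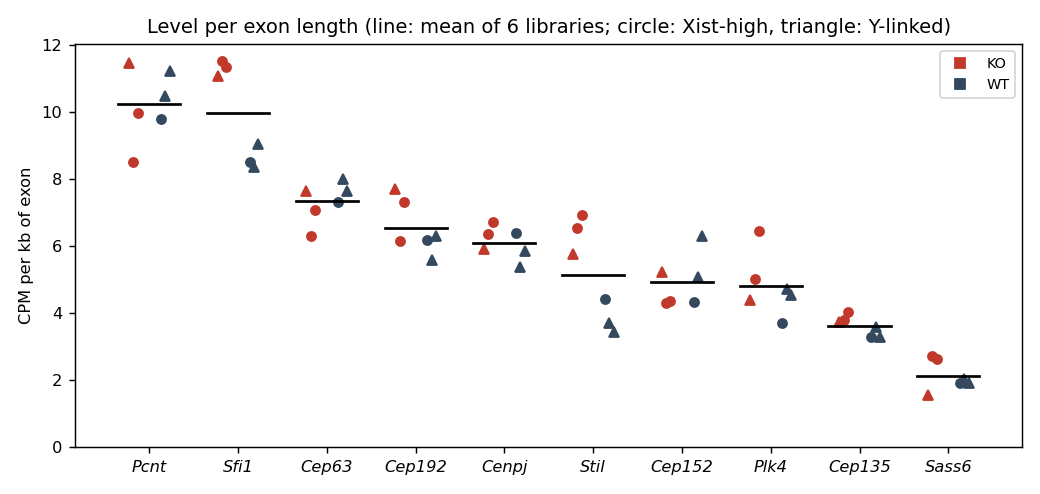
Level in CPM per kb of annotated exon (y axis, from 0) for the 10 genes in order of their mean over 6 colon libraries (black line). Points are libraries, KO left of WT, circles Xist-high and triangles Y-linked. Pcnt and Sfi1 lie near 10 CPM per kb and Sass6 near 2.12.

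Most other centrosome genes had a higher mean in KO colons, and none passed the test. EdgeR's quasi-likelihood test called 0 of 17195 genes after Benjamini-Hochberg adjustment (0%), with 870 at an unadjusted p under 0.05 (5.06%). Limma-voom called 0 (0%) and DESeq2 14 (0.0637%), none of them in the lists that follow. Of 32 other centriole assembly genes, 23 had a higher and 9 a lower mean in KO, and the list's median was 0.19 (log2). In 9 of these 32 every KO library was above every WT library and in 0 below, against 4.55% and 5.04% of all tested genes. Of the 32, 6 had an unadjusted edgeR p under 0.05, against 5.06% of all tested genes. The 3 largest differences among well-counted genes were those of Ccdc14, Wdr62 and Cep97. Wdr62, a spindle pole protein of the microcephaly family, had 22.2, 27.9 and 24.4 CPM in KO colons, against 16.0, 19.5 and 18.9 CPM in WT colons. Cep97, which with Ccp110 caps the centriole end, had 27.6, 23.8 and 35.1 CPM in KO colons, against 21.5, 20.1 and 22.1 CPM in WT colons. Both sets of libraries were apart, with log2 differences of 0.45 ± 0.16 and 0.44 ± 0.17 (SE), and Ccdc14 stood at 0.46 ± 0.17 (SE). Without KO replicate 1 the median of this list was 0.27.

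Of 22 pericentriolar material and gamma-tubulin genes, 16 had a higher and 6 a lower mean in KO, with a median of 0.09 (log2), and Cep72, Cep57l1 and Cep55 differed most, by 0.75 ± 0.26, 0.57 ± 0.22 and 0.49 ± 0.23 (SE, log2). Of 19 linker and appendage genes, 12 were higher and 7 lower, with a median of 0.11, which was 0.070 without KO replicate 3, 0.068 without WT replicate 3 and 0.18 without WT replicate 1. Among these, Ninl, a centrosomal protein that anchors microtubules, differed by 0.78 ± 0.35, Lrrc45, of the linker between centrioles, by 0.38 ± 0.15, and the kinase Nek2, which dissolves that linker, by 0.30 ± 0.15 (SE, log2), each with overlapping groups. Of 17 kinases and destruction factors of the centriole cycle, 12 were higher and 5 lower, with a median of 0.15, which stood at 0.30 when KO replicate 1 was left out and at 0.096 when KO replicate 2 was. Ccnb1, Ttk and Ccne1 differed by 0.56 ± 0.22, 0.54 ± 0.22 and 0.46 ± 0.40 (SE, log2). In 2 of the 17 every KO library was above every WT library and in 2 below. Of the 22 pericentriolar genes 5 were above and 1 below in this way, and of the 19 linker and appendage genes 1 and 0. Over all tested genes 4.55% were above and 5.04% below. Of 10 centrosome surveillance genes, linked to the response of cells to too many or too few centrioles, 7 were higher and 3 lower. Their median of 0.09 stood at 0.041 when KO replicate 3 was left out and at 0.045 when WT replicate 2 was. In 1 of the 10 every KO library was above every WT library and in 0 below. In that list Pidd1 differed by 0.40 ± 0.28 and Lats2 and Usp28 by -0.26 ± 0.25 and -0.26 ± 0.20 (SE, log2), all with overlapping groups. KO minus WT of the list mean was 0.39 among Xist-high and -0.12 among Y-linked libraries for the kinases and destruction factors (log2). In the same order it was 0.26 and 0.05 for the other centriole assembly genes and 0.13 and 0.10 for the pericentriolar genes. For the linker and appendage genes it was -0.02 and 0.17, and for the surveillance genes 0.07 and 0.06. Of 9 genes of multiciliated cells, which make many centrioles at a time, 8 were in the colon tables. Of these only Dnah5 passed the filter on low counts, and no other had more than 12 counts in a library.

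All 20 S phase genes and all 22 genes of G2 and M phase had a higher mean in KO, with medians of 0.26 and 0.29 (log2). An unadjusted edgeR p under 0.05 was found for 1 of the 20 and 7 of the 22, against 5.06% of all tested genes. Every KO library was above every WT library for 1 of the 20 and 6 of the 22, and below for 0 in either list. Over all tested genes these shares were 4.55% and 5.04%, so the S phase counts lay near those of all genes. The S phase median was 0.17 without WT replicate 1. The largest differences of the G2 and M phase list were those of Ndc80 at 0.56 ± 0.21, Bub1 at 0.55 ± 0.22 and Cenpe at 0.46 ± 0.10 (SE, log2), which act at the kinetochore. Both lists differed between the Xist sets, with KO minus WT for S phase at 0.66 among Xist-high and -0.11 among Y-linked libraries, and for G2 and M phase at 0.49 among Xist-high and 0.03 among Y-linked libraries. In KO replicates 2 and 3 the crypt stem cell markers were also highest and the smooth muscle and the neuron and glia markers lowest, and their part in these values was not tested. Of 12 cell cycle transcription factors 10 were higher, with a median of 0.18, which stood at 0.31 when KO replicate 1 was left out and at 0.11 when KO replicate 3 was. Among them Mybl2, E2f2 and E2f1 differed by 0.59 ± 0.28, 0.55 ± 0.14 and 0.51 ± 0.24 (SE, log2). E2f2 had 64.6, 89.8 and 85.9 CPM in KO colons, against 57.3, 53.0 and 53.4 CPM in WT colons, with no overlap. In 1 of the 12 every KO library was above every WT library and in 1 below. KO minus WT of this list's mean was 0.39 among Xist-high and -0.05 among Y-linked libraries. The median of the S phase list lay above that of the 10 members (0.21). The largest S phase difference was that of Rrm2, at 0.64 ± 0.24, where Stil stood at 0.74 ± 0.15 (SE, log2). These 2 values overlap within 1 SE, and Stil was picked on this contrast, so their order is a description.

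**Figure D4:**
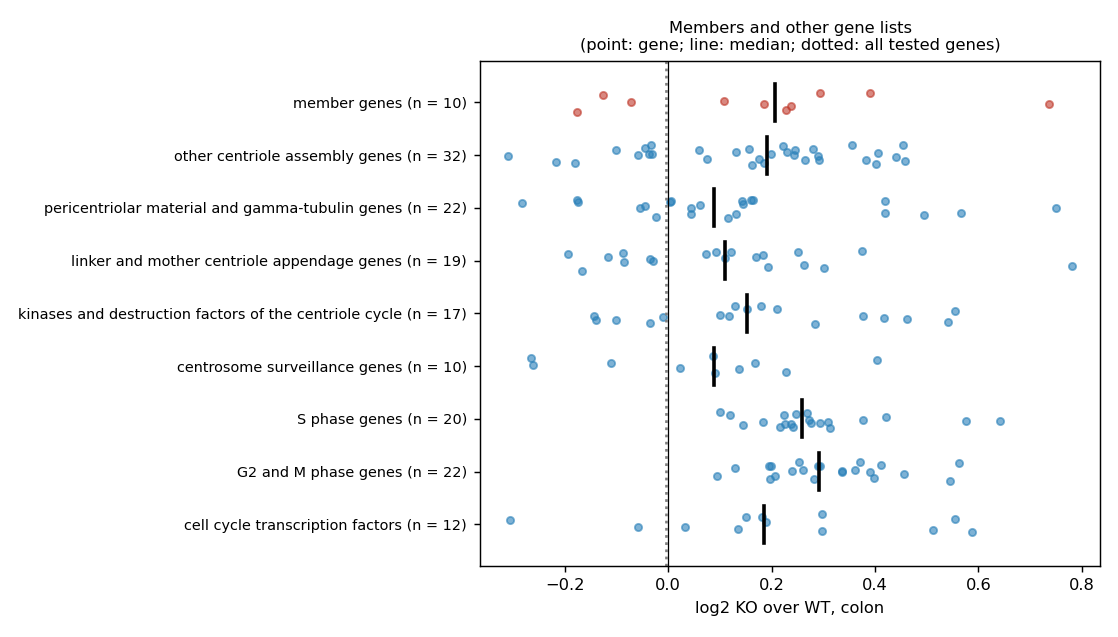
Log2 difference of KO over WT in colon (x axis) for each tested gene of 9 lists, with the list median as a black line and the median of all 17195 tested genes as a dotted line. The 10 members are in the top row, where Stil is the point farthest right at 0.74, and all points of the S phase and of the G2 and M phase rows lie above 0.

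Set against the G2 and M phase list within each library, Sfi1 and Stil, for which the group was picked, lay above 0. All other members lay below 0. KO minus WT relative to the mean of that list was 0.44 for Stil, 0.09 for Sfi1 and -0.02 for Plk4 (log2). It was -0.11 for Sass6 and for Cep135, -0.08 for Cep192, -0.19 for Cenpj, -0.38 for Pcnt, -0.43 for Cep63 and -0.46 for Cep152. Stil was the 1 member whose KO libraries all stayed above its WT libraries on this scale, as did 0.523% of all genes. Cep63 was the 1 whose KO libraries all lay below, as did 30% of all genes. Stil was picked on these same KO and WT values, so its place in that small share is a description and carries no test. Relative to the S phase list Stil stood at 0.45 and Sfi1 at 0.11, with overlapping groups in both, where 0.471% of all genes had every KO library above and 11.3% every KO library below. WT replicate 1 was the library that closed the gap of Stil on the S phase scale, at 0.23, between KO replicates 2 and 3 at 0.10 and 0.24.

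Profiles over the 6 colon libraries were compared among 12483 named genes averaging at least 50 counts, by the root mean square distance of centred log2 CPM. Nearest to Sfi1 were Haus6, a subunit of augmin that branches spindle microtubules, at 0.040, Idua, a lysosomal enzyme, at 0.053, and Espl1, the protease separase, at 0.054 (log2). Haus6 had 36.5, 39.7 and 39.5 CPM in KO colons, against 28.2, 26.7 and 29.8 CPM in WT colons. Nearest to Stil were Ccdc18, at 0.071, Sema4c, a membrane semaphorin, at 0.089, and Dusp22, a phosphatase, at 0.11 (log2). Sema4c had 48.6, 63.0 and 65.6 CPM in KO colons, against 45.7, 33.7 and 32.1 CPM in WT colons. The search used the same 6 libraries, so genes near Sfi1 or Stil are higher in KO by how they were found. Their KO and WT values are therefore a description and carry no test. Among the members, Cep135 was nearest to Sfi1, at 0.13 and rank 205, and Sfi1 nearest to Stil, at 0.22 and rank 131. The distance is not scaled for the size of a gene's differences, and the same distance between Sfi1 and Stil put Stil at rank 4598 from Sfi1.

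**Figure D5:**
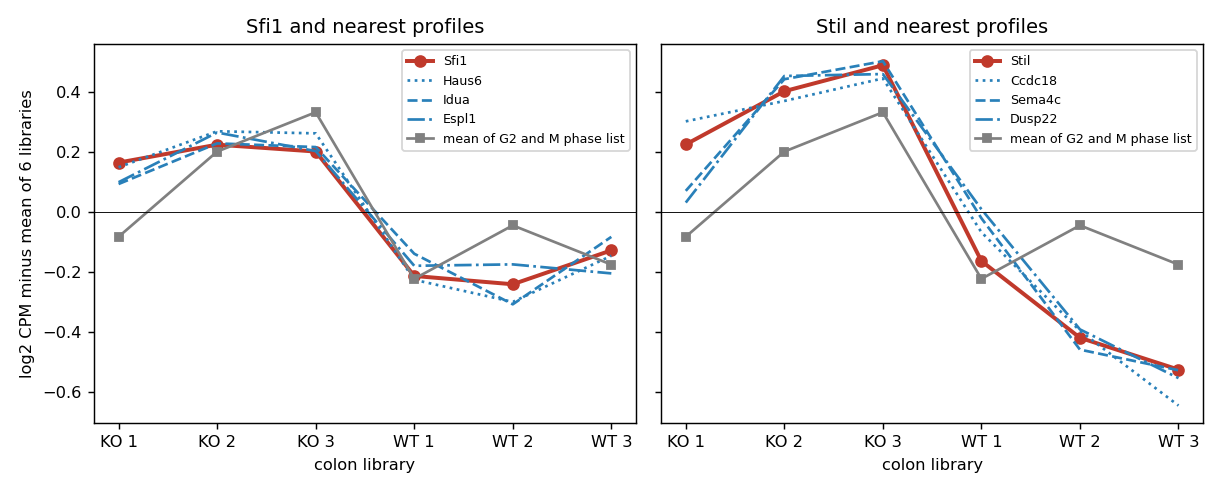
Log2 CPM minus the mean of 6 colon libraries (y axis) for Sfi1 (left) and Stil (right) in red, their 3 nearest genes in blue and the mean of the G2 and M phase list in grey, with KO libraries left of WT libraries. Lines only join points, since replicates have no order. Sfi1 is level within each label, Stil is lowest in WT replicates 2 and 3, and the grey line puts KO replicate 1 below 0.

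Neighbouring genes bear on how the counts can be read, because strand-specific counting is not stated. Drg1, a GTPase gene on the same strand, shares exon positions with Sfi1 and had 526, 608 and 636 counts in KO colons, against 606, 514 and 569 in WT colons, a log2 difference of 0.15 ± 0.11 (SE). The pseudogene Gm11400 lies inside Sfi1 off its exons and had 104 to 115 counts in KO colons and 110 to 111 in WT colons. The next gene on the other side, Pisd-ps1, a pseudogene 846 bases away, differed by 0.16 ± 0.11 (SE, log2). Sass6 shares exon positions with Trmt13, and Cep63 with Anapc13, each on the opposite strand, and these neighbours differed by 0.08 ± 0.25 and 0.10 ± 0.14 (SE, log2). Reads in the shared positions cannot be told apart. Stil overlaps no counted gene, and Tal1, a transcription factor gene that starts 13230 bases beyond it, had 38, 28 and 26 counts in KO colons, against 77, 40 and 42 in WT colons, a log2 difference of -0.70 ± 0.31 (SE).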

How the data were processed

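The authors deposited raw read counts for each Ensembl gene, whole numbers without normalisation. STAR, TopHat2, RSEM, HTSeq and DESeq2 and the builds mm10 and GRCm38 are named in the submitters' processing notes, without versions or roles, and filters and strand setting are not given in the sources used here. Coordinates and exon lengths come from GENCODE vM21 (GRCm38), where 30212 colon gene IDs were found (99.8%).

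The 6 colon libraries were filtered with filterByExpr, scaled by TMM and fitted by the quasi-likelihood method of edgeR 4.0.16 (robust, KO over WT, no covariate) in R 4.3.3, with Benjamini-Hochberg adjustment over all 17195 tested genes and a threshold of 0.05. Limma 3.58.1 (voom with quality weights) and DESeq2 1.42.0 were alternatives. DESeq2 was run on every gene with a count, and 21975 genes had an adjusted p. The SE of a fitted difference was computed as that difference, without sign, divided by the square root of its quasi-likelihood F statistic. That statistic pools spread across genes, so the SE restates the fit and is not the SD between a gene's libraries. For members it is given as description only. Profiles used log2 CPM with a prior count of 2. A library was called Xist-high above 100 CPM of Xist. Within a colon label no library repeats another, since the smallest chi-square per degree of freedom between such libraries was 5.19. P-values measure only the spread between these samples, and no count carries a molecular identifier.

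The members, the gene lists and the tests were chosen with earlier results of these data known. The rule for named genes takes the members, S1pr4, Xist and Ddx3y, the 3 nearest profiles of Sfi1 and of Stil, the genes overlapping or next to a member, and in each list the 3 largest differences among genes averaging at least 50 counts. Genes outside it (Ccp110, named as the partner of Cep97) carry no value. The fit across genes was checked on simulated data. Alternatives were 2 other scalings, 2 other filters, the replicate number as a block, the Xist status as a covariate, each library left out in turn, 2 other tools and another gene length. Scaling to the cell cycle lists was added after the values were seen.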

Additional observations from a re-analysis of the deposited data

Results flagged for a closer look

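Plk4 and Sass6 differed between KO and WT in opposite directions in the Xist-high and the Y-linked libraries. For Plk4, KO replicates 2 and 3 lay above WT replicate 1 and KO replicate 1 lay below WT replicates 2 and 3, so KO minus WT was 0.62 for Xist-high libraries and -0.08 for Y-linked ones (log2), 0.70 apart. For Sass6 the same libraries gave 0.48 and -0.34, 0.82 apart. The difference between the sets was not tested, and each set holds a single library of 1 label. Such an opposite order was found in 40.9% of the 17195 tested genes.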

How the results depend on the processing

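Sfi1, Stil, Plk4, Sass6, Cep192, Cenpj, Cep135, Cep152 and Cep63 kept the sign of their difference under all 14 alternatives, and Pcnt changed it without KO replicate 2. DESeq2 called 14 genes, 6 of them higher in KO, where edgeR called 0. The median over the 10 members (log2) was 0.13 with the Xist status as a covariate and 0.13 to 0.20 with each library left out, and over the 8 members other than Sfi1 and Stil it was 0.065 with the covariate. The median of the other centriole assembly genes ran from 0.16 to 0.27 with each library left out, and that of the surveillance genes from 0.041 to 0.13, with 0.029 under limma-voom. The cause was not tested. Genes at an unadjusted p under 0.05 in edgeR numbered 304 to 3569 with each library left out, the highest without KO replicate 1, and 4150 in limma-voom. With the replicate block edgeR called 0 genes, and 1084 had an unadjusted p under 0.05. Deviations of same-numbered libraries correlated at -0.039, 0.21 and -0.23, and not every library correlated best with its own number. The main fit used no pairing. With 3 libraries a label these correlations cannot show whether same-numbered samples share more than a number. The planned CD8+ T cell comparison could not be run for these genes. Precision is limited by 3 libraries a label and, for Sass6, by as few as 74 counts in a library.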
